A study of Homo sapiens with 6 samples.

Results

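The mitochondrially encoded transcripts are the RNAs made from the small circular genome inside mitochondria. They were taken as every row of the deposited gene table whose symbol starts with MT-, which gave 37 of 60664 genes: 13 mRNAs, 2 rRNAs and 22 tRNAs. All 37 were found on the mitochondrial chromosome of GRCh38 in GENCODE release 29. The RNA came from PC9OR cells, a name that holds that of PC9, an established human lung adenocarcinoma line whose EGFR gene carries an activating deletion; the labels do not spell out OR. The series compared 3 libraries labelled NC, with the genotype Control, with 3 libraries labelled si-GLMP, with the genotype GLMP knockdown. GLMP encodes a lysosomal membrane glycoprotein, and the series title places it in resistance to EGFR inhibitors, autophagy and the RhoA pathway. The sources used here give neither the small interfering RNA, its dose and the time after transfection nor the drug exposure of the cells.

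Both strands of the mitochondrial genome are transcribed into long precursors that carry many genes each. The tRNAs lie between the mRNAs and rRNAs, and their excision by mitochondrial RNase P and ELAC2 frees the other RNAs. Most of the mRNAs, though not all, then receive a poly(A) tail from MTPAP, and the LRPPRC and SLIRP complex protects most of them. The 13 proteins are subunits of respiratory complexes I, III, IV and V, which work together with many nuclear-encoded subunits. Most genes are read from the heavy-strand promoter and are annotated on the plus strand. MT-ND6 and 8 of the 22 tRNAs are annotated on the minus strand and come from the light-strand promoter.

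Several mRNAs end within a codon, and their stop codon is completed only by the tail. The last 24 bases of 4 annotated genes are shown 5′ to 3′ because the libraries were made from mRNA, so that the tail bears on which RNAs could be read. An annotated gene end need not be the end of the RNA, and where the tails began was not measured. Capitals mark the last bases that follow the final whole codon, or the stop codon itself, for which MT-CO1 and MT-ND6 carry AGA and AGG. The sequences are the GENCODE release 29 transcripts on GRCh38, with MT-CO3 at chrM:9967-9990, MT-ND4 at chrM:12114-12137 and MT-CO1 at chrM:7422-7445 on the plus strand, and MT-ND6 at chrM:14149-14172 on the minus strand.
MT-CO3: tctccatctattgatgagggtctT
MT-ND4: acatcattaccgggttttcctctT
MT-CO1: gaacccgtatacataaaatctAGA
MT-ND6: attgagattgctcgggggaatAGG
By the annotated lengths, 6 mRNAs ended in T or TA and 7 carried a whole stop codon. The median log2 fold change in si-GLMP was -0.42 in the former and -0.46 in the latter, with ranges of -0.58 to -0.23 and -0.65 to -0.25.

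Neighbouring mRNAs also share bases, which matters for their counts. MT-ATP8 and MT-ATP6, both subunits of ATP synthase, overlap by 46 bases, and MT-ND4L and MT-ND4, both subunits of complex I, by 7 bases. Each overlap is shown in capitals with 10 flanking bases on either side, on the plus strand of GRCh38, at chrM:8517-8582 and chrM:10750-10776.
MT-ATP8 and MT-ATP6: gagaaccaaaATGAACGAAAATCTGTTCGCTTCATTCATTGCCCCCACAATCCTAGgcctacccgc
MT-ND4L and MT-ND4: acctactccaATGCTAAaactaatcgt
The shared stretch is 22.2% of MT-ATP8 but 6.75% of MT-ATP6, and 2.36% of MT-ND4L and 0.508% of MT-ND4. The sources used here do not say how a read over such a stretch was assigned, so the split of counts within each pair is uncertain.

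Library totals ran from 19896875 to 22372878 counts. The targeted gene, GLMP, had 309, 344 and 347 counts with the control and 82, 61 and 65 after knockdown, so each library matched its label. The sums of 8 epithelial markers were 9448 to 9747 CPM in NC and 8804 to 9850.0 CPM in si-GLMP, where CPM is the usual count normalised to library size, with sizes scaled by TMM. Of these 8, EPCAM, CDH1, CLDN4 and MUC1 were called higher and KRT7 lower by edgeR, and 3 keratin genes, KRT8, KRT18 and KRT19, did not pass. Among all tested genes, 23.3% were called in either direction. The sums of 6 leukocyte markers were 1.47 to 1.91 and 1.21 to 2.35 CPM, with LYZ and TYROBP at 0. The 8 fibroblast and endothelial markers summed to 11.5 to 13.5 CPM in NC and 17.1 to 17.99 CPM in si-GLMP, with COL1A1 as the largest part, COL3A1 at 0, and at most 1 count in a library for DCN and LUM. The part of these markers in the results was not tested. The labels do not say whether the 3 libraries of a group came from separate cultures, and the p-values therefore rest on library-to-library spread that may be technical.

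Mitochondrial mRNAs took a smaller share of all counts in each si-GLMP library than in any NC library. The 13 mRNAs together held 6.55, 8.73 and 6.49% of all counts over NC replicates 1 to 3. Over si-GLMP replicates 1 to 3 they held 5.18, 5.49 and 5.31%. NC replicate 2 lay well above the other libraries, while NC replicates 1 and 3 were close to each other and the si-GLMP libraries lay together below them. The mean share was 7.26 ± 1.28% in NC and 5.33 ± 0.159% in si-GLMP (SD, n = 3 each), a difference of -1.93 percentage points. The exact two-sided permutation p was 0.1, the smallest that 3 against 3 libraries can give. Relative to the mean of all NC libraries the share was 26.6% lower, and relative to NC replicates 1 and 3 alone, 18.3% lower. The widest Wilson 95% interval of a single share was that of NC replicate 2, 8.72 to 8.74%, and such intervals cover counting error only. A share of counts does not measure the amount per cell. In these bulk libraries, fewer mitochondrial genomes per cell, less RNA per genome and more RNA of other genes cannot be told apart.

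**Figure D1:**
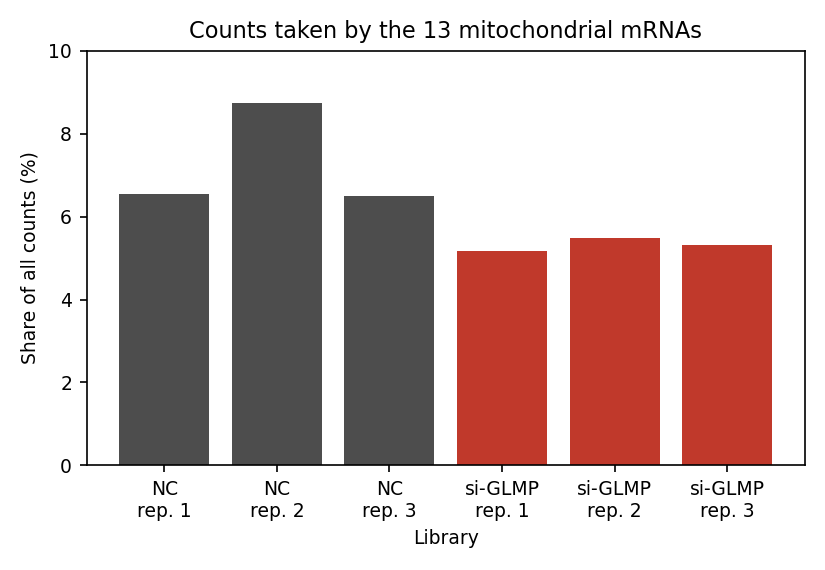
Share of all counts (%, vertical axis from 0) held by the 13 mitochondrial mRNAs in each library, with NC in grey and si-GLMP in red. NC replicate 2 reached 8.73%, NC replicates 1 and 3 lay at 6.55 and 6.49%, and the si-GLMP libraries between 5.18 and 5.49%.

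Of the 37 transcripts, 16 passed the filter on low counts and could be tested: all 13 mRNAs, both rRNAs and the tRNA gene MT-TP. At an edgeR quasi-likelihood adjusted p under 0.05, 6 of the 13 mRNAs were lower in si-GLMP, 0 were higher and 7 did not pass. Among all 15900 tested genes, 11.3% were lower by that rule and 12.0% higher, 23.3% in either direction. The median log2 fold change of the mRNAs was -0.44, beside 0.0036 over all tested genes, and each of the 13 had a negative value. In 12 of the 13, each si-GLMP library lay below each NC library, which held for 17.9% of all tested genes. The exception was MT-ATP8.

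The 3 mRNAs of complex IV, cytochrome c oxidase, were all called lower, beside 11.3% of all tested genes. MT-CO1 encodes the catalytic subunit that reduces oxygen and was the most highly read mitochondrial gene. It had 21494, 28949 and 20854 CPM over NC replicates 1 to 3, against 17039, 17679.8 and 16783 CPM over si-GLMP replicates 1 to 3. The log2 fold change was -0.47 ± 0.10 (standard error; adjusted p = 0.00524 by edgeR). The groups did not overlap, and NC replicate 2 was the highest library by a wide margin. MT-CO2, which encodes the subunit that accepts electrons from cytochrome c, had 6090.1, 8357 and 5863 CPM over NC replicates 1 to 3, against 4592, 4627 and 4397 CPM over si-GLMP replicates 1 to 3. Its log2 fold change was -0.58 ± 0.13 (standard error; adjusted p = 0.0181 by edgeR). MT-CO3 encodes the third core subunit, and it had 5157, 6952 and 5552 CPM over NC replicates 1 to 3, against 3937, 4029 and 3853 CPM over si-GLMP replicates 1 to 3. This gave 5887 ± 943 CPM over the NC libraries against 3939.7 ± 88.2 over the si-GLMP libraries (SD, n = 3 a group), and a log2 fold change of -0.58 ± 0.078 (standard error; adjusted p = 1.83e-06 by edgeR). Even the lowest NC library of MT-CO3 lay above the highest si-GLMP library. The MT-CO3 call was kept in all 16 alternative fits. The calls of MT-CO1 and MT-CO2 were each lost in 4 of 16 alternatives. They did not hold when si-GLMP replicate 1 was left out (edgeR adjusted p = 0.175 and 0.153) or when si-GLMP replicate 2 was (0.0744 and 0.123). The log2 fold changes in those fits lay between -0.59 and -0.46. Both calls were also lost with limma-voom (adjusted p = 0.104 and 0.0763) and after removal of a GC and length trend (edgeR adjusted p = 0.0559 and 0.072).

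Complex I, the NADH dehydrogenase, holds 7 of the mitochondrial proteins, and 3 of its mRNAs were called lower, beside 11.3% of all tested genes. All 7 had a negative log2 fold change. In all 7, each si-GLMP library lay below each NC library, beside 17.9% of all tested genes. MT-ND4L, a small membrane subunit, had 1003, 1122 and 1079 CPM over NC replicates 1 to 3, against 832, 813 and 758 CPM over si-GLMP replicates 1 to 3. The spread within each group was small, and the groups lay apart. The log2 fold change was -0.41 ± 0.064 (standard error; adjusted p = 8.98e-07 by edgeR), and this call was also kept in all 16 alternatives. MT-ND3, another small membrane subunit, had 876, 832 and 935 CPM over NC replicates 1 to 3, against 781, 779 and 695 CPM over si-GLMP replicates 1 to 3. In contrast to the other mRNAs, MT-ND3 was lowest within NC in replicate 2. Its log2 fold change was -0.23 ± 0.064 (standard error; adjusted p = 0.006 by edgeR), and the call was lost without NC replicate 3 (edgeR adjusted p = 0.0909) or si-GLMP replicate 3 (0.116). MT-ND1, which encodes a subunit beside the ubiquinone site, had 7237, 9543 and 7043 CPM over NC replicates 1 to 3, against 6463, 6914 and 6435 CPM over si-GLMP replicates 1 to 3. The log2 fold change of MT-ND1 was -0.27 ± 0.092 (standard error; adjusted p = 0.0479 by edgeR), just inside the threshold. That call was lost in 9 of 16 alternatives, among them DESeq2 (adjusted p = 0.224), RLE scaling (edgeR adjusted p = 0.057) and the fit without NC replicate 2, in which the log2 fold change was -0.11 (edgeR adjusted p = 0.208).

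The other 4 complex I mRNAs had wider spreads in NC and were not called. MT-ND4, a proton-pumping subunit, had 10935, 16838 and 11031 CPM over NC replicates 1 to 3, against 8236, 8877 and 9067 CPM over si-GLMP replicates 1 to 3. NC replicates 1 and 3 were nearly equal and above each si-GLMP library, and NC replicate 2 stood far above both. Its log2 fold change was -0.57 ± 0.21 (standard error; adjusted p = 0.140 by edgeR). MT-ND4 lies on a shared mature mRNA with MT-ND4L, so the unlike calls of the pair do not set separate mRNAs apart. MT-ND2, a further pump subunit, had 3941, 5561 and 3725 CPM over NC replicates 1 to 3, against 3122, 3555 and 3261 CPM over si-GLMP replicates 1 to 3, with a log2 fold change of -0.41 ± 0.18 (standard error; adjusted p = 0.195 by edgeR). MT-ND5, the pump subunit at the far end of the membrane arm, had 3742, 5152 and 3494 CPM over NC replicates 1 to 3, against 2994, 3104 and 3023 CPM over si-GLMP replicates 1 to 3. Its log2 fold change was -0.44 ± 0.15 (standard error; adjusted p = 0.105 by edgeR), and in both genes, as in MT-ND4, NC replicate 2 was the highest library and the groups did not overlap. MT-ND6, the single mRNA of the light-strand promoter, had 498, 746 and 484 CPM over NC replicates 1 to 3, against 415, 431 and 411 CPM over si-GLMP replicates 1 to 3. Its log2 fold change was -0.46 ± 0.20 (standard error; adjusted p = 0.198 by edgeR), close to the median of the 13 mRNAs, though without the strand setting of the counting, reads of the opposite strand cannot be told apart.

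The single complex III gene, MT-CYB, encodes cytochrome b. It had 2465, 3381 and 2323 CPM over NC replicates 1 to 3, against 1992, 2069.6 and 2003 CPM over si-GLMP replicates 1 to 3. The groups did not overlap, but the spread within NC was large, and the log2 fold change was -0.43 ± 0.15 (standard error; adjusted p = 0.0924 by edgeR). Of the pair of ATP synthase mRNAs, MT-ATP6, which encodes a subunit of the proton channel, had 1985, 3175 and 1999 CPM over NC replicates 1 to 3, against 1469, 1563 and 1545 CPM over si-GLMP replicates 1 to 3. Its log2 fold change of -0.65 ± 0.22 (standard error; adjusted p = 0.128 by edgeR) was the most negative value among the members and did not pass the threshold. DESeq2 called MT-ATP6 (adjusted p = 0.0395). MT-ATP8, the short mRNA that overlaps it, had 56.0, 94.3 and 68.4 CPM over NC replicates 1 to 3, against 61.2, 60.0 and 62.7 CPM over si-GLMP replicates 1 to 3. The si-GLMP values of MT-ATP8 lay between those of NC replicates 1 and 3, and its log2 fold change was -0.25 ± 0.21 (standard error; adjusted p = 0.486 by edgeR).

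**Figure D2:**
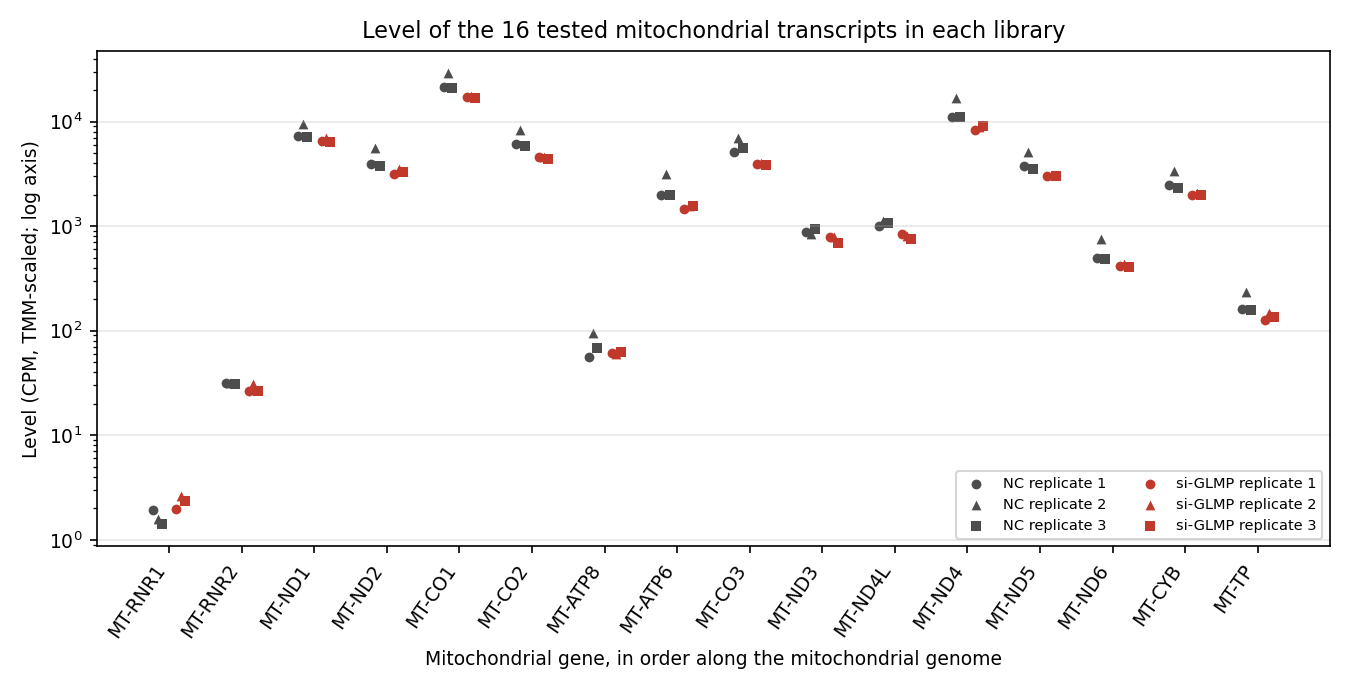
Level of the 16 tested mitochondrial transcripts (CPM, log axis) in each library, ordered along the genome, with NC in grey, si-GLMP in red and the marker shape giving the replicate. Grey triangles, NC replicate 2, stand above the other NC libraries for most mRNAs but not for MT-ND3, MT-RNR1 or MT-RNR2.

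NC replicate 2 was checked as a possible outlier. For each mRNA, its log2 departure was taken from the mean log2 level of the other 2 NC libraries. The departure had a median of 0.50 over the 13 mRNAs, beside -0.0022 over all tested genes with counts in each library. It was over 0.4, a size chosen after the values were seen, in 10 of the 13 mRNAs and in 5.76% of all such genes. NC replicate 2 was the highest NC library for 12 of the 13 mRNAs, beside 36.9% of all tested genes. Within NC, the SD of an mRNA was 5.64 to 28.6% of its mean, and within si-GLMP 1.87 to 6.68%. The departures were led by MT-ATP6 at 0.67, MT-ND4 at 0.62 and MT-ATP8 at 0.61. At the other end, MT-CO3 had 0.38, MT-ND4L 0.11 and MT-ND3 -0.12. The excess in NC replicate 2 was thus uneven among the 13 annotated genes, and the neighbours MT-ND3 and MT-ND4L had little or none of it. MT-ND4L and MT-ND4 lie on a shared mature mRNA, so their unlike departures are not a contrast between separate mRNAs. The cause was not tested. Among the si-GLMP libraries, the departures of the 13 mRNAs lay between -0.17 and 0.16. NC replicates 1 and 3 differed from each other by 0.010 (MT-ATP6) to 0.29 (MT-ATP8) on the log2 scale.

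**Figure D3:**
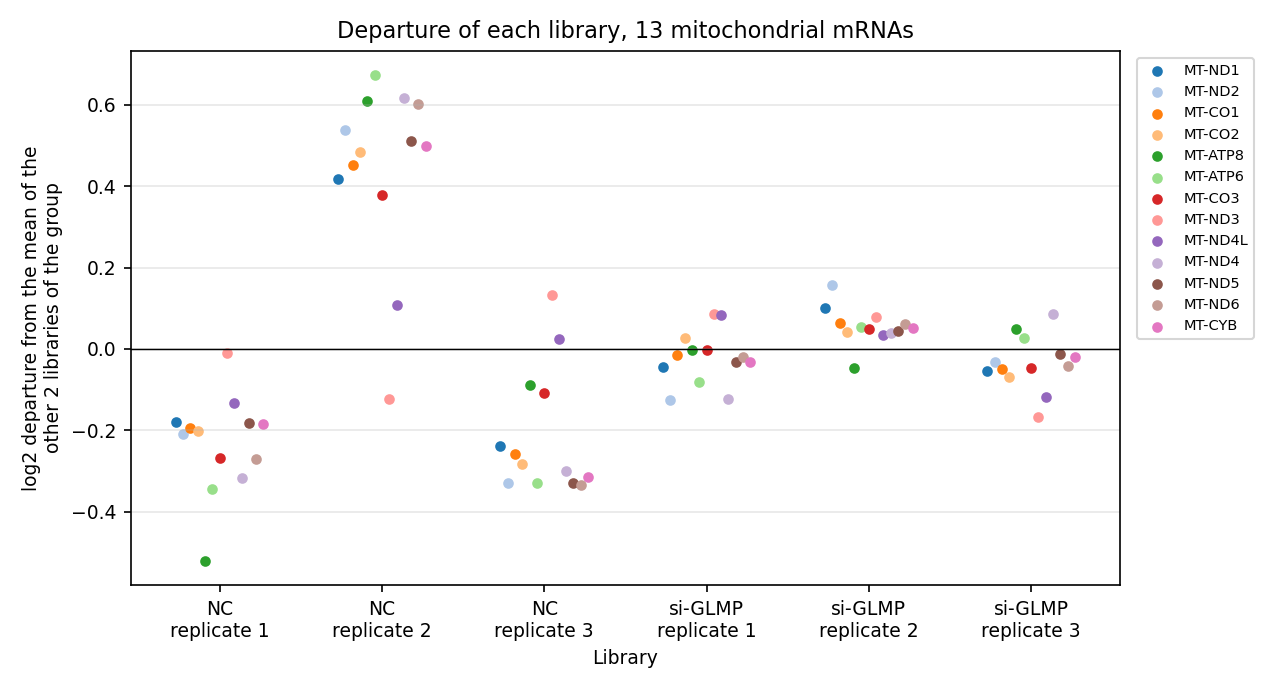
log2 departure of each library (vertical axis) from the mean of the other 2 libraries of its group, one point for each of the 13 mitochondrial mRNAs. In NC replicate 2, 10 of the 13 points lie above 0.4, while the points of the si-GLMP libraries lie between -0.17 and 0.16.

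Nuclear genes of mitochondrial gene expression had medians near 0 in NC replicate 2. These median log2 departures were -0.051 for 23 genes of mitochondrial DNA transcription and maintenance, -0.012 for 34 genes of mitochondrial RNA processing, 0.015 for 20 translation factors and 0.044 for 14 regulators of biogenesis and mitophagy. The TMM factor of NC replicate 2 was 0.964, the lowest of the 6, and 0.981 when computed from nuclear genes alone. What set this library apart was not tested.

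Without NC replicate 2, the difference was smaller for 12 of the 13 mRNAs, MT-ND3 excepted, and more of them passed the test. This library stood out by its mitochondrial values, and leaving it out narrowed the NC spread of most mRNAs. The p-values of the fit without it do not allow for that choice. In that fit 11 of the 13 mRNAs were called lower, of which 5 were among the 6 called with all libraries, and the median log2 fold change was -0.27. Of all genes tested in that fit, 18.7% were called in either direction, beside 23.3% with all libraries. MT-ND4 had -0.33 (edgeR adjusted p = 2.18e-05) and MT-ATP6 -0.38 (edgeR adjusted p = 2.65e-06). MT-CYB had -0.24 (edgeR adjusted p = 0.00277) and MT-ND5 -0.25 (edgeR adjusted p = 0.00178). MT-ND2 had -0.21 (edgeR adjusted p = 0.012) and MT-ND6 -0.23 (edgeR adjusted p = 0.0082). Among those called with all libraries, MT-CO3 had -0.44 (edgeR adjusted p = 6.17e-08), MT-CO2 -0.40 (edgeR adjusted p = 6.61e-07) and MT-CO1 -0.30 (edgeR adjusted p = 6.11e-05). MT-ND4L had -0.38 (edgeR adjusted p = 8.82e-06) and MT-ND3 -0.27 (edgeR adjusted p = 0.0019). The mRNAs not called without that library were MT-ND1, and MT-ATP8 with -0.022 (edgeR adjusted p = 0.902). MT-ATP8 was called without NC replicate 1, at -0.40 (edgeR adjusted p = 0.000592). The count of lower mRNAs was 10 without NC replicate 1 and 8 without NC replicate 3, where 17.2 and 18.5% of all tested genes were called in either direction. It was 3, 3 and 4 without si-GLMP replicate 1, 2 or 3, where 20.4, 21.1 and 17.4% of all tested genes were called.

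**Figure D4:**
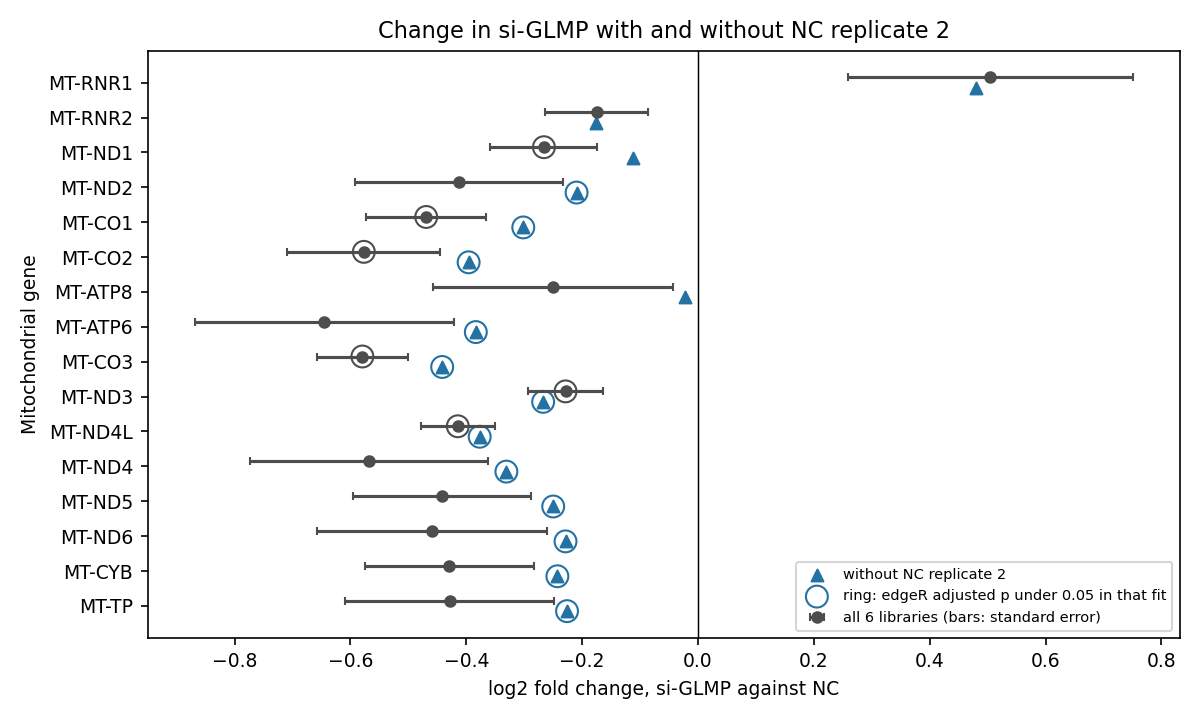
log2 fold change of si-GLMP against NC (horizontal axis) for the 16 tested mitochondrial transcripts, with all 6 libraries (grey points, bars are standard errors) and without NC replicate 2 (blue triangles). Rings mark an edgeR adjusted p under 0.05, and the blue values of 11 mRNAs are ringed although most lie nearer to 0 than the grey ones. The p-values behind the blue rings do not allow for the choice of NC replicate 2 by its mitochondrial values.

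The make-up of the mitochondrial mRNA counts was compared between the groups, with a permutation test that could not reach 0.05 at this number of libraries. Each mRNA was expressed as a share of the summed counts of the 13 mRNAs in its library, which removes the common level. The shares of 6 mRNAs did not overlap between the groups, with 3 higher and 3 lower in si-GLMP. By CPM, a different measure, 2853 of all 15900 tested genes were lower without overlap and 2949 were higher without overlap. MT-ND1 held 11.1, 10.5 and 10.9% over NC replicates 1 to 3 against 12.4, 12.7 and 12.3% over si-GLMP replicates 1 to 3. MT-ND1 thus took a larger part of the mitochondrial mRNA reads in each si-GLMP library, including against NC replicate 2. MT-CYB and MT-ATP8 were the other mRNAs with a higher share, MT-CYB at 3.70 ± 0.0841% in NC and 3.82 ± 0.0209% in si-GLMP (SD, n = 3 each). MT-CO2 held 9.30, 9.21 and 9.10% over NC replicates 1 to 3 against 8.84, 8.49 and 8.41% over si-GLMP replicates 1 to 3, and its share was lower in each si-GLMP library. MT-ATP6 and MT-CO3 had lower shares too, MT-ATP6 at 3.21 ± 0.253% and 2.88 ± 0.0642%. MT-ATP6 lies on a shared mature mRNA with MT-ATP8, so the opposite shares of this pair depend on how reads were assigned. MT-CO1 had nearly equal shares, 32.4 ± 0.455% in NC and 32.4 ± 0.357% in si-GLMP. Each of the 6 differences without overlap had an exact two-sided permutation p of 0.1, the smallest possible, and an adjusted p of 0.217 over the 13 shares. No share could therefore pass 0.05, whatever its values, and the lack of a call says nothing about the size of a difference. The shares of one library sum to a whole, so a higher share of one mRNA lowers the others.

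**Figure D5:**
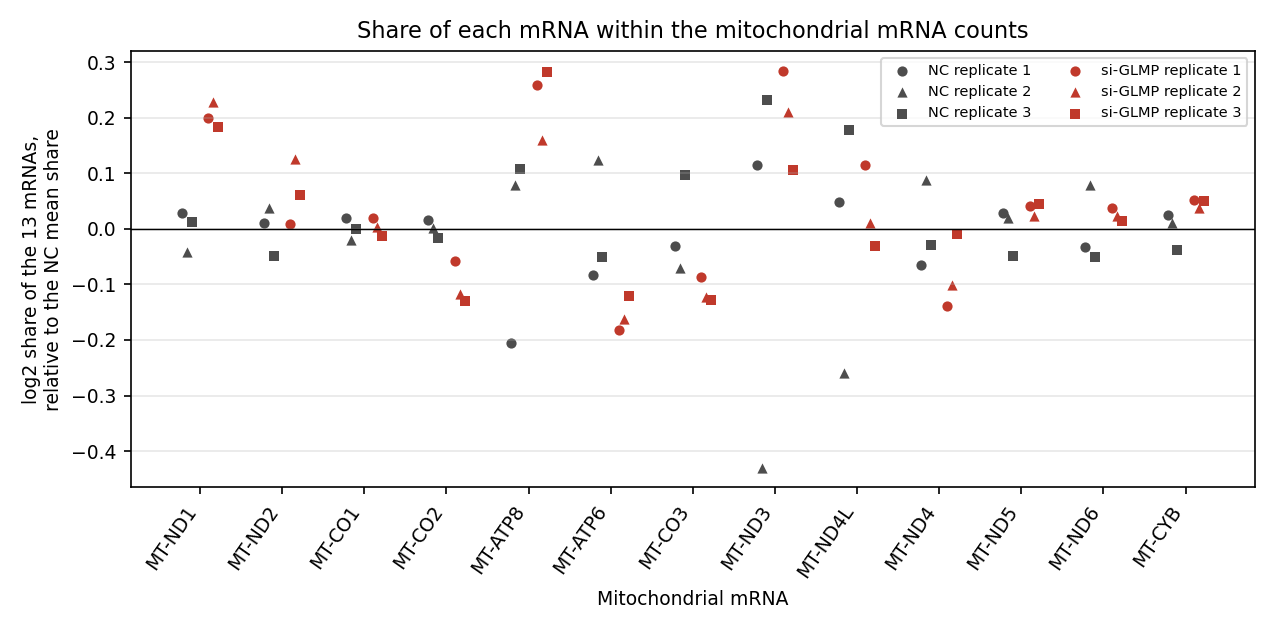
log2 share of each mRNA within the counts of the 13 mitochondrial mRNAs (vertical axis), relative to its mean share in NC, for each library. The red points of MT-ND1 lie above all grey points and those of MT-CO2 below, whereas NC replicate 2 (grey triangle) is lowest for MT-ND3 and MT-ND4L.

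Per length, the levels of the mRNAs spanned a wide range although most derive from 1 precursor. In NC, MT-CO1 had 15412 ± 2918 CPM per kilobase of the annotated gene (mean ± SD, n = 3), above every other mRNA. MT-CO2 followed at 9898 ± 2017, MT-ND4 at 9387 ± 2453, MT-ND1 at 8306 ± 1454 and MT-CO3 at 7509 ± 1203, and neighbours within these 4 differed by less than the larger of their SDs. A middle group of MT-ND2, MT-ND4L and MT-ATP6 lay at 4231 ± 963, 3596 ± 203 and 3504 ± 1003 CPM per kilobase. These levels leave out reads counted for nuclear copies of mitochondrial genes. Such reads were 36.6% as many as those of MT-ATP6 for MTATP6P1 and 8.54% as many as those of MT-ND2 for MTND2P28. The order within this middle group is therefore uncertain. MT-ND3, MT-CYB and MT-ND5 lay at 2546 ± 149.6, 2386 ± 503 and 2279 ± 494. Neighbours in the order from MT-ND2 to MT-ND5 also differed by less than the larger SD. These SDs include the rise of most mRNAs in NC replicate 2, which neighbours can share. They therefore do not measure whether neighbours differed within each library. MT-ND6 had 1097 ± 280.2 and MT-ATP8 was lowest, at 352 ± 94.6. MT-ATP8 and MT-ATP6 lie on a shared mature mRNA, as do MT-ND4L and MT-ND4, so the levels within each pair depend on how reads were assigned. In si-GLMP, MT-CO1 was again highest, at 11133 ± 299 CPM per kilobase, and MT-ATP8 lowest, at 296 ± 6.55.

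The rRNAs of the mitochondrial ribosome are abundant in cells but were nearly absent from these libraries. MT-RNR2, the large rRNA, had 31.6, 31.3 and 31.2 CPM over NC replicates 1 to 3, against 26.5, 30.7 and 26.2 CPM over si-GLMP replicates 1 to 3. In NC this was 20.1 ± 0.133 CPM per kilobase, far under every mRNA. The 3 NC values of MT-RNR2 were almost equal, without the excess of NC replicate 2, and the log2 fold change was -0.18 ± 0.089 (standard error; adjusted p = 0.157 by edgeR). MT-RNR2 was called lower in 2 of the 16 alternatives, without si-GLMP replicate 2 (-0.25, edgeR adjusted p = 0.0371) and after removal of a GC and length trend (-0.23, 0.0196). MT-RNR1, the small rRNA, had 38, 32 and 32 counts over the NC replicates against 40, 56 and 48 over the si-GLMP replicates. It was the only tested member with a positive log2 fold change, 0.50 ± 0.25 (standard error; adjusted p = 0.139 by edgeR), and was not called in any of the 16 alternatives. Transcripts that mostly lack a poly(A) tail were looked at beside the rRNAs. The sum of 27 such genes, 7 of them at 0, was 13.4 to 18.2 CPM in NC and 28.8 to 37.0 CPM in si-GLMP. Most of the 27 were histone genes. The largest single part in si-GLMP was RN7SL1, which is not a histone gene. It had 41, 57 and 175 counts in NC against 196, 195 and 245 in si-GLMP and was not called (edgeR adjusted p = 0.193). The part of the difference between these sums in the values of the mitochondrial transcripts was not tested.

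Of the 22 tRNA genes, 21 had too few reads to test. In 13 of them no library had a read, and a count of 0 allows up to 3 counts, or 0.134 to 0.151 CPM by library. The other 8 held at most 13 counts in a library, 6 of them with no more than 5 over all libraries. MT-TP, the tRNA for proline, differed from the rest. It had 3203, 4747 and 3590 counts over the NC replicates against 2578, 3150 and 2801 over the si-GLMP replicates, while the other 21 tRNA genes summed to 90 counts over the 6 libraries. MT-TP is the last annotated gene of the mitochondrial chromosome, at chrM:15956-16023 on the minus strand, and MT-TF, the tRNA for phenylalanine, is the first, at chrM:577-647 on the plus strand. Both border the control region, which carries the promoters and no annotated gene, yet MT-TF had a single read, in NC replicate 2. Their GENCODE sequences are shown 5′ to 3′ with the anticodon in capitals.
MT-TP: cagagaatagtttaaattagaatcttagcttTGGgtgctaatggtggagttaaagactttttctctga
MT-TF: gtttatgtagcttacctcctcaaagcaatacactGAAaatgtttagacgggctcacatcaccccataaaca
The level of MT-TP was 184 ± 41.7 CPM over the NC libraries against 137 ± 11.3 over the si-GLMP libraries (SD, n = 3 a group). NC replicate 2 was again the highest library, with a departure of 0.54, and each si-GLMP library lay below each NC library. The log2 fold change was -0.43 ± 0.18 (standard error; adjusted p = 0.180 by edgeR) with all libraries and -0.23 (edgeR adjusted p = 0.0202) without NC replicate 2. The call was also made without NC replicate 1 (edgeR adjusted p = 0.0193), without NC replicate 3 (0.0257) and with no filter on low counts (2.09e-05). MT-TP thus had a pattern over the 6 libraries like that of the mRNAs, but whether its reads came from the tRNA, from longer RNAs of the light strand or from the opposite strand cannot be told apart here, since the sources do not give the strand setting of the counts.

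Nuclear copies of mitochondrial genes are a further limit on single values. The table held 415 genes named as such copies, 320 of them at 0 in each library, and 7 could be tested. MTATP6P1 (chr1:633696-634376, plus strand) is 98.5% identical to MT-ATP6 over 681 aligned bases, and its summed counts were 36.6% of those of MT-ATP6. It had 702, 1291 and 711 CPM over NC replicates 1 to 3, against 514, 537 and 547 CPM over si-GLMP replicates 1 to 3. Its high value in NC replicate 2 and lower values in si-GLMP followed those of MT-ATP6, and its log2 fold change was -0.76 ± 0.29 (standard error; adjusted p = 0.159 by edgeR). MTND2P28 (chr1:629640-630683, plus strand), 98.4% identical to MT-ND2, held 8.54% as many counts as MT-ND2 and had a log2 fold change of -0.51 ± 0.14 (standard error; adjusted p = 0.0506 by edgeR). MTCO1P12, 98.7% identical to MT-CO1, held 0.0585% as many counts as MT-CO1, with -0.20 ± 0.13 (standard error; adjusted p = 0.314 by edgeR). Of the 7 tested copies, 0 were called by edgeR. With the counts of MTATP6P1, MTND2P28, MTCO1P12 and MTND4P12 added to their mitochondrial genes, the same 6 mRNAs were called lower.

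Most nuclear genes that serve mitochondrial gene expression did not pass the test. Of 91 tested genes on 4 lists, 6 were higher and 7 lower, together 14.3%, beside 23.3% of all tested genes. The median log2 fold change was -0.026, beside 0.0036 over all tested genes. The count of called genes was 6 without NC replicate 1, 8 without NC replicate 3 and 7 without si-GLMP replicate 3. Of all genes tested in those fits, 17.2, 18.5 and 17.4% were called.

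For mitochondrial DNA transcription and maintenance, 2 of 23 genes rose and 2 fell, together 17.4%, beside 23.3% of all tested genes. SSBP1 encodes the mitochondrial single-stranded DNA-binding protein of the replication fork. It had 93.1, 92.4 and 90.2 CPM over NC replicates 1 to 3, against 68.1, 65.5 and 59.0 CPM over si-GLMP replicates 1 to 3. All si-GLMP libraries lay below the NC libraries, the log2 fold change was -0.52 ± 0.073 (standard error; adjusted p = 1.21e-07 by edgeR), and the call was kept in all 16 alternatives. LIG3, the mitochondrial DNA ligase gene, fell, with -0.30 on the log2 scale (adjusted p = 0.0164 by edgeR). POLG, the catalytic subunit of the mitochondrial DNA polymerase, rose by 0.23 (edgeR adjusted p = 0.0169), and DGUOK, a mitochondrial deoxynucleoside kinase, by 0.25 (edgeR adjusted p = 0.0292). The calls of these 3 genes were each lost without NC replicate 2 (edgeR adjusted p = 0.0757, 0.133 and 0.0956), and in 2 or more other alternatives. TFAM, which packages the genome and starts its transcription, had 167 ± 10.2 CPM over the NC libraries against 176 ± 18.8 over the si-GLMP libraries (SD, n = 3 a group) and did not pass the test. POLRMT, the mitochondrial RNA polymerase, had -0.17 ± 0.071 (standard error; adjusted p = 0.082 by edgeR).

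Among 34 tested genes of mitochondrial RNA processing and stability, 2 rose and 0 fell, together 5.88%, beside 23.3% of all tested genes. FASTKD5, which acts on mRNAs that no tRNA flanks, rose by 0.26 ± 0.076 (SE; edgeR adjusted p = 0.01), a call lost without NC replicate 1 (0.145). NGRN, needed for the large mitochondrial rRNA, rose by 0.20 (edgeR adjusted p = 0.0394), a call lost in 7 of 16 alternatives. MRM3, which methylates the large rRNA, and FASTK, which acts on the MT-ND6 mRNA, did not pass, with 0.25 and 0.18 (edgeR adjusted p = 0.0761 and 0.0854). LRPPRC, the RNA-binding protein that protects most of the mRNAs, had 844 ± 43.3 CPM over the NC libraries against 794 ± 54.8 over the si-GLMP libraries (SD, n = 3 a group). The log2 fold change of LRPPRC was -0.089 ± 0.064 (standard error, edgeR adjusted p = 0.347). Its partner SLIRP had -0.079 ± 0.068 (standard error; adjusted p = 0.451 by edgeR), and PNPT1, the nuclease of the mitochondrial degradosome, -0.12 ± 0.07 (standard error; adjusted p = 0.248 by edgeR).

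Of 20 tested translation factors, 3 fell and 0 rose, together 15%, beside 23.3% of all tested genes called in either direction. MTRF1L, a release factor that ends mitochondrial protein synthesis, had 17.4, 17.9 and 17.8 CPM over NC replicates 1 to 3, against 11.2, 11.3 and 10.9 CPM over si-GLMP replicates 1 to 3. The groups lay far apart, with a log2 fold change of -0.67 ± 0.11 (standard error; adjusted p = 3.82e-06 by edgeR) that was kept as a call in all 16 alternatives. MTFMT, which formylates the initiator methionine tRNA, had -0.46 ± 0.15 (standard error; adjusted p = 0.0158 by edgeR), and MRRF, the ribosome recycling factor, -0.22 ± 0.073 (standard error; adjusted p = 0.0238 by edgeR). The MTFMT call was lost without NC replicate 1 (edgeR adjusted p = 0.131) or NC replicate 3 (0.0781), and the MRRF call in 5 of 16 alternatives. GFM2, an elongation factor relative that recycles mitochondrial ribosomes, had -0.18 ± 0.08 (standard error; adjusted p = 0.109 by edgeR).

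Among 14 tested regulators of mitochondrial biogenesis and mitophagy, 2 rose and 2 fell, together 28.6%, beside 23.3% of all tested genes. PPARGC1B, a coactivator of nuclear genes for respiration, had 22.1, 23.3 and 22.4 CPM over NC replicates 1 to 3, against 14.0, 11.1 and 15.2 CPM over si-GLMP replicates 1 to 3. Its si-GLMP values all lay below those of NC, the log2 fold change was -0.75 ± 0.11 (standard error; adjusted p = 2.26e-07 by edgeR), and the call was kept in all 16 alternatives. Its relative PPARGC1A was near 0, with 0, 0 and 2 counts with the control and 0, 0 and 2 after knockdown. BCL2L13, a mitophagy receptor, rose by 0.25 (edgeR adjusted p = 0.00803), also kept in all 16 alternatives. The mitophagy receptor BNIP3 rose by 0.20 (edgeR adjusted p = 0.0294) and the prohibitin gene PHB2 fell by 0.18 (edgeR adjusted p = 0.038). The BNIP3 call was lost without NC replicate 1, NC replicate 3 or si-GLMP replicate 3, and the PHB2 call in 7 of 16 alternatives.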

How the data were processed

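Gene expression was measured by RNA sequencing in 3 NC and 3 si-GLMP libraries of PC9OR cells. Trizol was used for extraction and the libraries were Illumina mRNA libraries, per the labels' protocols. The authors deposited raw read counts per gene. The submitters' processing notes name HISAT2 and GRCh38. The sources used here do not give the counting tool, strand setting or treatment of reads that map to several places, which bears on overlapping genes and nuclear copies. Groups and replicate numbers came from the sample titles.

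The whole table of 60664 genes went into edgeR 4.0.16 (R 4.3.3). The function filterByExpr (minimum count 10) kept 15900 genes, libraries were scaled by TMM, and groups were compared by robust quasi-likelihood F tests. Adjusted p-values are Benjamini-Hochberg values across the tested genes (threshold 0.05). Standard errors are the log2 fold change over the square root of F. Shares of counts were compared by exact permutation over libraries. The statistics were tested on simulated data with a common dispersion and no outlying library, unlike NC replicate 2 here. Of 50 genes changed 1.3-fold, edgeR recovered 23, and of 50 changed 1.5-fold, 37. The simulation gave 6 false calls. Gene positions, lengths and sequences came from GENCODE release 29.

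The members and gene lists were chosen with earlier results of these data known. Named genes were every tested member, the 4 nuclear genes with the smallest adjusted p on each list, and TFAM, POLRMT, LRPPRC, SLIRP, PNPT1 and PPARGC1A. 1 list symbol was matched by identifier. Alternatives were RLE, upper-quartile and nuclear-gene scaling, 2 other filters, DESeq2 1.42.0, limma-voom (limma 3.58.1), a replicate block and each library left out. Removal of a GC and length trend and addition of nuclear copies were chosen after seeing the data.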

Additional observations from a re-analysis of the deposited data

How the results depend on the processing

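The 13 mRNAs had a negative log2 fold change in all 16 alternatives, but the number called lower moved around the 6 of the edgeR fit. It was 3 with limma-voom and 3 after removal of a GC and length trend (MT-ND3, MT-CO3 and MT-ND4L both times), and 3 to 11 with a library left out. It was 5 to 8 under the scaling, filter, DESeq2 and nuclear-copy alternatives. The cause was not tested. With the replicate number as a block, 12 were lower. Of all tested genes, 25.0% were called in either direction under the block, 23.0% with limma-voom, 27.7% after removal of the trend, 17.2 to 21.1% with a library left out, and 9.75% (no filter) to 26.7% (filter of 1 CPM) in the others, beside 23.3% in the edgeR fit. The labels do not say that a number marks a shared culture. Over all tested genes, deviations of same-numbered libraries had correlations of 0.039, 0.026 and 0.001. NC replicate 3 correlated best with si-GLMP replicate 2, at 0.01. For the share of the 13 mRNAs, however, replicate 2 was highest in both groups, at 8.73% in NC and 5.49% in si-GLMP. These values do not settle whether the numbers pair libraries, so the block is an alternative only. Called nuclear genes of the 4 lists numbered 6 to 13 with a library left out, beside 13 with all. TFAM, not called in any fit, ranged from -0.0036, without si-GLMP replicate 2, to 0.15 on the log2 scale. The difference in the mRNA share ranged from -2.31 to -1.19 percentage points with a library left out. Depth limits MT-RNR1, with at most 56 counts in a library, and the 21 untested tRNA genes.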

Other observations

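Histone genes, most of whose transcripts carry no poly(A) tail, gave values in the direction opposite to the mitochondrial mRNAs. Of 8 tested genes on the list of transcripts without a tail, 5 were higher in si-GLMP and 0 lower by edgeR, beside 12.0% of all tested genes higher. H2AC6 had 55, 54 and 64 counts over the NC replicates against 130, 140 and 202 over the si-GLMP replicates, or 1.46 as a log2 fold change (edgeR adjusted p = 2.93e-09). H2BC5 had 55, 50 and 54 and 108, 111 and 119 counts, or 1.10 as a log2 fold change (edgeR adjusted p = 3.98e-06). RN7SL1, an RNA of the signal recognition particle, was not called, with 41, 57 and 175 counts in NC, where replicate 3 was the highest, and 196, 195 and 245 in si-GLMP. Some histone genes also make transcripts with a tail, and which kind was read was not tested.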
